A study of Mus musculus with 8 samples.

Results

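H3K27me3, the trimethylation of histone H3 at lysine 27 that Polycomb repressive complex 2 deposits, was examined over the 3 paired Dlx gene clusters of the mouse genome in neural stem cells (NSCs). The Dlx regions were the rows of a table of 13585 H3K27me3-enriched regions that overlapped the body of Dlx1, Dlx2, Dlx3, Dlx4, Dlx5 or Dlx6, with 5 kb added on each side (GRCm38, GENCODE annotation). This rule found 3 regions of the 13585, 1 per pair, and each held both genes of its pair whole. The marks of the 6 genes could therefore be read only by pair.

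The genes lie tail to tail within each pair. Dlx1 (ENSMUSG00000041911.3, chr2:71528113-71533981, plus strand) faces Dlx2 (ENSMUSG00000023391.8, chr2:71543408-71546754, minus strand). Dlx3 (ENSMUSG00000001510.8, chr11:95120119-95125296, plus strand) faces Dlx4 (ENSMUSG00000020871.8, chr11:95140447-95146263, minus strand). Dlx6 (ENSMUSG00000029754.13, chr6:6863334-6868568, plus strand) faces Dlx5 (ENSMUSG00000029755.10, chr6:6877805-6882085, minus strand).

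The cells were primary female NSCs of C57BL/6J background, taken from the cortices of E14.5 embryos, grown as an adherent monolayer and kept under 10 passages. The comparison was between WT cells, labelled Smchd1GFP+/+, and cells homozygous for the MommeD43 allele (MD43), labelled Smchd1GFPMommeD43/MommeD43. MommeD43 is a missense variant of Smchd1, which encodes a non-canonical structural maintenance of chromosomes protein with roles in gene silencing. All cells, WT included, carried the endogenous Smchd1 gene fused to GFP, and the MommeD43 change had been made on that GFP line with CRISPR/Cas9. The labels give 3 H3K27me3 ChIP libraries per genotype from separate NSC lines, and 1 library of whole-cell extract per genotype that had no column in the table. The authors deposited 1 pooled column per genotype, the mean log2 read count of the 3 libraries after scaling to library size, so no value below has an SD, an n or a test, and no difference has a replicate check.

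The depth behind the means could be recovered from their spacing. A single read in each library corresponded to 3.27 normalized counts for WT and to 2.63 for MD43, and the median region held 100.1 reads per library in WT and 129.96 in MD43. Intervals given below are 95% counting intervals from these reads. They cover counting error only, leave out the variation between NSC lines, and are the smallest error a difference could have. Differences are MD43 minus WT on the log2 scale throughout.

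Dlx genes encode homeodomain transcription factors related to Drosophila Distal-less. In mammals they lie as convergent pairs, each on the same chromosome as a Hox cluster. Dlx1, Dlx2, Dlx5 and Dlx6 are active in the ventral forebrain, where they drive the formation and migration of GABAergic interneurons, and they also pattern the branchial arches. Dlx5 and Dlx6 further act in limb and bone, and Dlx3 acts in epidermis, hair, teeth and placenta. In cells where such developmental regulators are silent, they commonly sit in broad domains of H3K27me3, and Polycomb domains tend to centre on DNA rich in unmethylated CpG.

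The DNA under the 3 regions is shown first by its stretches richest in CpG, since CpG content was one of the features the regions shared. In each line below, CG dinucleotides are in capitals and the other bases in lower case. The first is the 250 bases before the RefSeq start of Dlx2 (chr2:71546755-71547004, minus strand, GRCm38.p6, RefSeq sequence). The others are the 200-base stretches with the most CpG outside annotated exons in each region (plus strand).
Dlx2 promoter: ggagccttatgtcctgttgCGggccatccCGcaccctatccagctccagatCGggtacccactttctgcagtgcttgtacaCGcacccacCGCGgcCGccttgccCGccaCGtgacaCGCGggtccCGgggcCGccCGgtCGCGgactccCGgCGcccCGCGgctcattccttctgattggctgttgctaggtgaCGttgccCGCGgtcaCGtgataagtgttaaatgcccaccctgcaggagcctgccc
Dlx1/Dlx2 region, chr2:71581080-71581279: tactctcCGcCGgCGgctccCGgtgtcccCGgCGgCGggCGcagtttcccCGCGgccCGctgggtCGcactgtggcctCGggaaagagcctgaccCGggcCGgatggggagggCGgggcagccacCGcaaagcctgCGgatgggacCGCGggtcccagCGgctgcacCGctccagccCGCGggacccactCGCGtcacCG
Dlx3/Dlx4 region, chr11:95121382-95121581: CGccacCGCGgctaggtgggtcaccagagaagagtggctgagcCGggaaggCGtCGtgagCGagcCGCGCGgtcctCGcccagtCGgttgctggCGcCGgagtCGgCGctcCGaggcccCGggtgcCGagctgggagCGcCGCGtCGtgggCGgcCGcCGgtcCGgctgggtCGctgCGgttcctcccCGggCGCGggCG
Dlx5/Dlx6 region, chr6:6879319-6879518: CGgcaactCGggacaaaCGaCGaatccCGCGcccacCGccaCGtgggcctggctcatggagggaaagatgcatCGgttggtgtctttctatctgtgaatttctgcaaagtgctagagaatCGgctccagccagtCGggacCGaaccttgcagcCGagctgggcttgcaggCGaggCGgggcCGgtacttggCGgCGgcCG

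The Dlx2 promoter held 24 CpG. The 250 bases before the RefSeq start of Dlx1 (chr2:71529195-71529444, plus strand) held 22, but they lay inside the GENCODE body of Dlx1, downstream of its start there. The median was 6 over 32851 RefSeq promoters, of which 14.8% held at least 22. Neither the Dlx2 nor the Dlx1 stretch held TAATTA, a core that many homeodomain proteins bind. This motif, which is its own reverse complement, occurred in 4.84% of promoters on either strand. Promoters of Dlx3, Dlx4, Dlx5 and Dlx6 were not analysed here. The Dlx1/Dlx2 stretch held 27 CpG and lay between genes, 34326 bp upstream of the Dlx2 start and near the edge of the region. The Dlx3/Dlx4 stretch held 33 CpG and lay in an intron of Dlx3, 1263 bp downstream of its start. The Dlx5/Dlx6 stretch held 19 CpG and lay in an intron of Dlx5, 2567 bp downstream of its start.

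All 3 Dlx regions were among the most strongly marked of the table in both genotypes. The region of Dlx1 and Dlx2 (chr2:71495601-71585950, 90.35 kb) had a log2 value of 14.80 in WT and 15.33 in MD43, rank 70 and rank 48 of 13585. The region of Dlx3 and Dlx4 (chr11:95029401-95266900, 237.5 kb) had 15.41 in WT and 15.80 in MD43, rank 29 and rank 27. The region of Dlx5 and Dlx6 (chr6:6807201-6904900, 97.7 kb) had 14.88 in WT and 15.19 in MD43, rank 57 and rank 58. The median over all regions was 8.35 in WT and 8.42 in MD43.

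Part of this height came with length, as the regions were 90.35 to 237.5 kb long against a median of 10250 bp. Per kb of region, Dlx1/Dlx2 carried 316 normalized counts in WT and 455 in MD43, which were 9.38 and 13.1 times the median density of all regions. Dlx5/Dlx6 carried 309 per kb in WT and 383 in MD43, or 9.19 and 11.1 times the median. Dlx3/Dlx4, the longest, carried 183 per kb in WT and 239.9 in MD43, or 5.44 and 6.92 times the median. The order of density was thus Dlx1/Dlx2, Dlx5/Dlx6, Dlx3/Dlx4 in both genotypes, and the first 2 differed little in WT, by 0.03 on the log2 scale (0.0050 to 0.05). In MD43 they stood 0.25 apart (0.23 to 0.27). Dlx3/Dlx4 was below Dlx5/Dlx6 by 0.76 in WT (log2 difference -0.76, -0.78 to -0.73) and by 0.68 in MD43 (-0.68, -0.69 to -0.66).

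**Figure D1:**
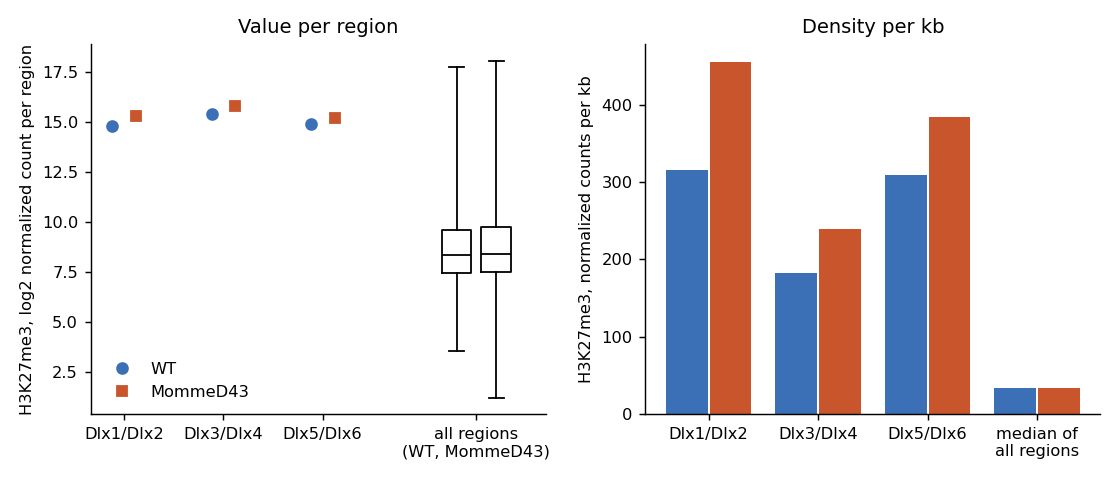
H3K27me3 at the 3 Dlx regions in WT (blue) and MommeD43 (orange). Left, log2 normalized count per region, with box plots of all 13585 regions (box, quartiles; line, median; whiskers, lowest and highest). Right, normalized counts per kb beside the median of all regions, where the tallest bars are Dlx1/Dlx2 at 316 in WT and 455 in MommeD43. Each point or bar is the authors' mean of 3 libraries, so there are no error bars.

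The regions differed in what they covered beside the Dlx genes. In the Dlx1/Dlx2 region the 2 genes, 9426 bp apart, were flanked by 32512 bp on the left and 39196 bp on the right. It also held the antisense gene Dlx1as whole and the 3′ 41.1% of Metap1d, a mitochondrial methionine aminopeptidase whose start lay outside it. In the Dlx5/Dlx6 region the genes were 9236 bp apart, with 56133 bp to the left and 22815 bp to the right. Dlx5 and Dlx6 were its only protein-coding genes, but the antisense RNA gene Dlx6os1, which is transcribed across conserved enhancer sequence of the pair, lay in it whole. Protein-coding genes covered 9.74% of that region and 43.0% of the Dlx1/Dlx2 region.

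The Dlx3/Dlx4 region was broader than its pair, with 90718 bp to the left and 120637 bp to the right of the genes, which were 15150 bp apart. It held 5 protein-coding starts. Beside Dlx3 and Dlx4 it covered Itga3, an integrin subunit, whole, 79.2% of Pdk2, a kinase of the pyruvate dehydrogenase complex, and 69.4% of Tac4, a tachykinin precursor. The pair and the sequence between its genes made up 11.01% of the region, against 20.6% for Dlx1/Dlx2 and 19.2% for Dlx5/Dlx6. Its values are thus the least specific to the Dlx genes of the 3.

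H3K27me3 counts, scaled to library size, were higher in MD43 than in WT over all 3 pairs in the deposited values. The sign at Dlx3/Dlx4 turned when trends with GC content and density were removed (-0.16). The paper regards ChIP-seq as a poor measure of relative histone mark levels. By immunofluorescence it reported H3K27me3 modestly lower in MommeD43 on the inactive X and over the whole nucleus, the latter without data shown. The counts here give no absolute level of the mark. Of all regions, those on the X included, 60.2% were higher in MD43 (37.1% when both columns were scaled to equal totals). Of the autosomal ones, where the Dlx pairs lie, 57.7% were higher (32.9% under equal totals). A count of 3 of 3 says little against that background. The Dlx1/Dlx2 region had the largest difference of the 3, 0.53 (0.51 to 0.55), a 1.44-fold higher value that rested on a geometric mean of 8724 reads per library in WT and 15622 in MD43. At Dlx3/Dlx4 the difference was 0.39 (0.37 to 0.41), 1.31-fold, from 13297 and 21636 reads per library. At Dlx5/Dlx6 it was 0.31 (0.29 to 0.33), 1.24-fold, from 9243 and 14221 reads.

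None of the 3 reached a difference of 1, the 2-fold mark, which 6.09% of all regions passed upward and 3.03% downward. Dlx1/Dlx2 alone was above 0.5, as were 18.3% of all regions. The counting intervals of all 3 lay above 0, as did those of 40.9% of all regions. Between pairs, Dlx1/Dlx2 exceeded Dlx3/Dlx4 by 0.14 (0.11 to 0.17) and Dlx5/Dlx6 by 0.22 (0.19 to 0.25), and Dlx3/Dlx4 exceeded Dlx5/Dlx6 by 0.08 (0.05 to 0.11). These gaps are beyond counting error in the deposited values, but whether they exceed the spread between NSC lines was not tested. With the trend with GC content removed they became, in the same order, 0.40, 0.02 and -0.38, so that the last turned in sign.

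Ranked among 11707 autosomal regions, which no rescaling changes, the differences stood at percentile 88.2 for Dlx1/Dlx2, 79.8 for Dlx3/Dlx4 and 73.2 for Dlx5/Dlx6. The Dlx regions are long, and in the deposited scaling most long regions were higher in MD43. Over the other 705 autosomal regions of at least 50 kb the median difference was 0.25 (quartiles 0.02 and 0.46), and 542 of them, 76.9%, were higher in MD43. Under equal totals their median was 0.01 and 361 of them, 51.2%, were higher. Of these 705, 126 differed by at least as much as Dlx1/Dlx2 and 300 by at least as much as Dlx5/Dlx6. Together the 3 Dlx regions held 0.589% of all normalized counts in WT and 0.661% in MD43, over 0.164% of the length.

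The difference between the genotypes moved with base composition across the table, and the 3 pairs lay at different points of that trend. Dlx3/Dlx4 was GC-rich, at 51.4% (percentile 92.0), where the running median of autosomal regions was already 0.33. Removing this trend left 0.06 (0.04 to 0.08) at Dlx3/Dlx4. Dlx1/Dlx2 was at 46.0% GC, near the median of 45.6%, where the trend was 0.06, and 0.46 remained. Dlx5/Dlx6 was AT-richer, at 43.5%, where the trend was below 0 (-0.13), and its difference rose to 0.44, so that it stood 0.02 below Dlx1/Dlx2 on that scale and the order of the pairs changed. In autosomal percentiles the values after removal were 90.2 for Dlx1/Dlx2, 58.5 for Dlx3/Dlx4 and 89.6 for Dlx5/Dlx6.

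**Figure D2:**
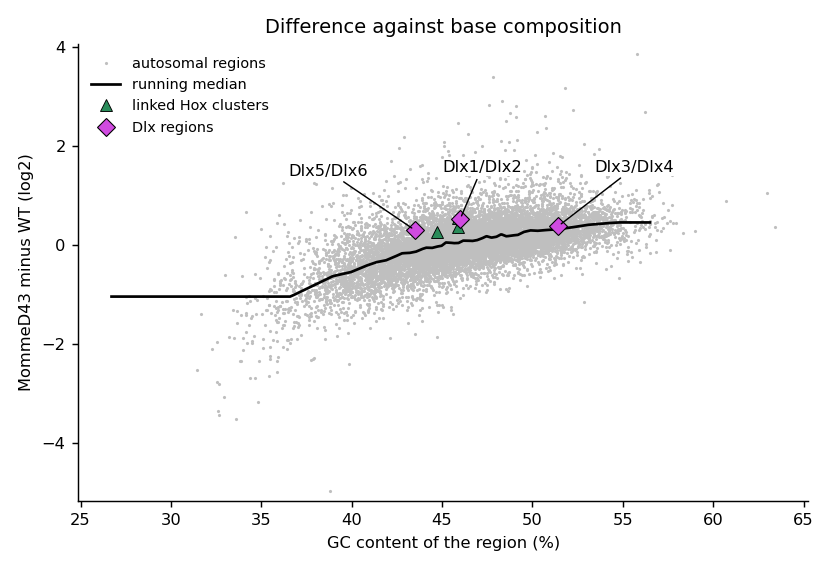
Difference in H3K27me3 (MommeD43 minus WT, log2) against GC content for autosomal regions (grey points), with their running median (black line), the Hox clusters on the chromosomes of the Dlx pairs (green triangles, of which Hoxa and Hoxb lie at almost the same GC) and the Dlx regions (magenta diamonds). Dlx3/Dlx4 lies close to the line, at 0.39 against 0.33, whereas Dlx1/Dlx2 and Dlx5/Dlx6 lie above it.

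A trend with signal strength was also present, and at the height of the Dlx regions the running median was 0.31. With that trend removed the differences were 0.22 (0.20 to 0.24) at Dlx1/Dlx2, 0.08 (0.06 to 0.10) at Dlx3/Dlx4 and 0.0012 (-0.02 to 0.02) at Dlx5/Dlx6. The trend is a single value for the strongest of 40 bins of autosomal regions, so these are differences from that bin as a whole and not from regions of equal strength. Scaling both columns to the same total moved every difference by -0.24, which left 0.29, 0.15 and 0.07. The part that base composition and signal strength play in the differences was not tested.

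In CpG content the regions were alike in being above the median. Dlx1/Dlx2 held 18.0 CpG per kb (percentile 86.6), Dlx3/Dlx4 held 16.1 (79.7) and Dlx5/Dlx6 held 13.4 (64.3), against a median of 11.5. Relative to what base composition gives, the observed over expected CpG ratio was 0.34 for Dlx1/Dlx2, 0.243 for Dlx3/Dlx4 and 0.283 for Dlx5/Dlx6, and the median was 0.216. Repeats covered 23.8%, 24.0% and 20.7% of the 3 regions, close to the median of 23.9%.

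The surroundings of the pairs show how local the signal was. The neighbours were the regions whose centre lay within 1 Mb of the midpoint of a pair, 50 in all. This leaves out the long Hoxb region, which begins within 1 Mb of Dlx3/Dlx4 but is centred beyond it and which was denser than that pair, with 231 per kb in WT and 337 in MD43. Around Dlx5/Dlx6 there were 9, with a median of 27.9 normalized counts per kb in WT and 25.3 in MD43, so that the pair stood 11.1 times above them in WT and 15.2 times in MD43. Around Dlx1/Dlx2 there were 14, at a median of 44.8 per kb in WT and 45.1 in MD43, and the pair stood 7.04 and 10.1 times above. Around Dlx3/Dlx4 there were 27, at 35.2 and 40.7 per kb, and the pair stood 5.20 and 5.89 times above. Most neighbours were shorter than the pair, and the flanks added to peaks make up more of a short region. At every pair the contrast with the surroundings was larger in MD43 in the deposited values. At Dlx3/Dlx4 the pair's difference exceeded the median of its neighbours by 0.20 as deposited and by 0.06 with the GC trend removed.

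**Figure D3:**
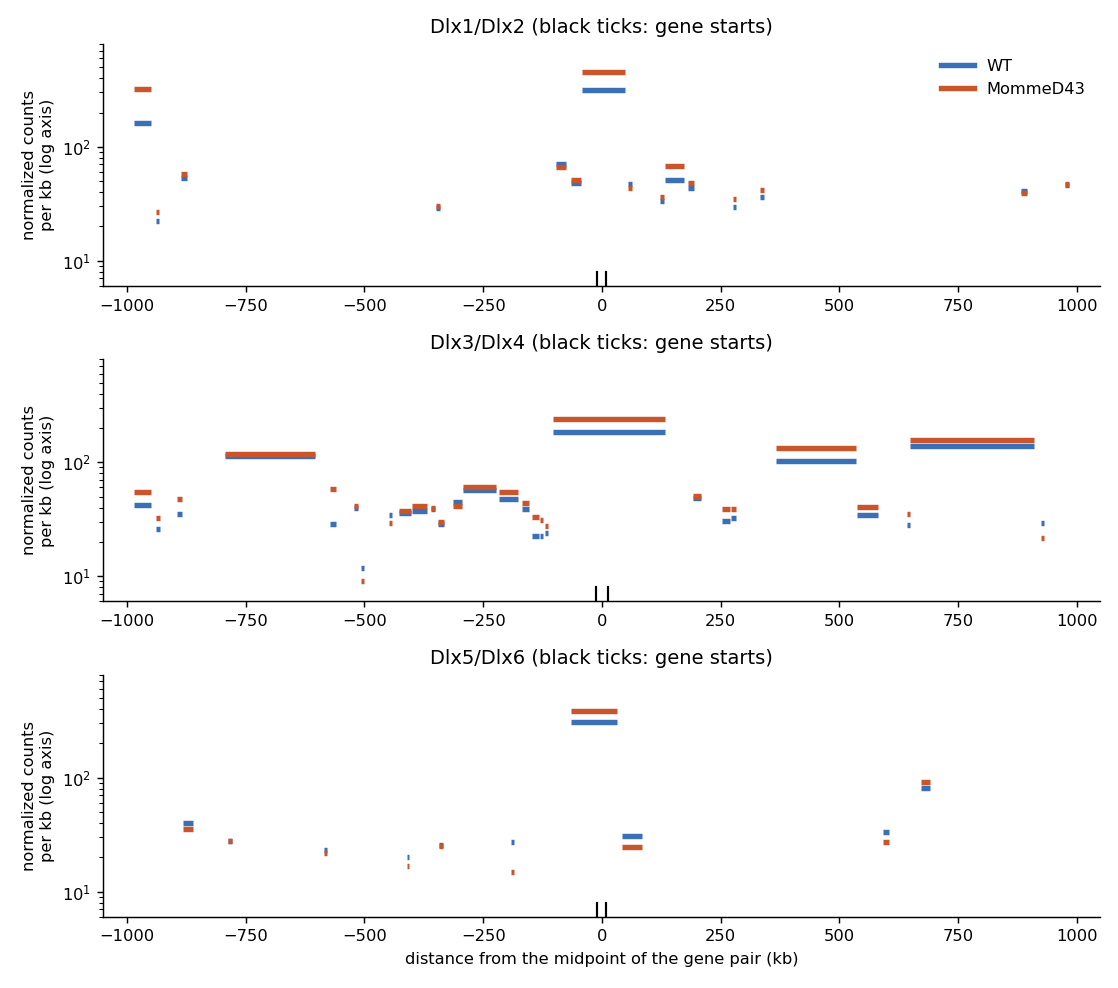
H3K27me3 density (normalized counts per kb, log axis) of each region centred within 1 Mb of the 3 Dlx pairs in WT (blue) and MommeD43 (orange), against distance from the midpoint of the gene pair in kb, with black ticks at the Dlx gene starts. Each bar spans 1 region, and within each genotype the Dlx region is the highest of those drawn, which leave out the denser Hoxb region centred beyond 1 Mb of Dlx3/Dlx4.

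In the deposited values the neighbours of Dlx5/Dlx6 lay below the pair in difference, but their own direction changed with the GC trend. Of its 9 neighbours 8 were lower in MD43 and 1 was higher, with a median of -0.18 and a range of -0.87 to 0.17, all below the pair's 0.31. The counting intervals of 4 lay below 0 and of 1 above 0. Under equal totals all 9 were lower, whereas with the GC trend removed 7 were higher and 2 lower. The nearest on the right, 9700 bp from the edge, overlapped Sdhaf3, a succinate dehydrogenase assembly factor, and went from 10.36 to 10.03 (-0.33, -0.45 to -0.21, but 0.03 with the GC trend removed). The nearest on the left, a gene-free region 120250 bp away, went from 7.20 to 6.33 (-0.87, -1.25 to -0.49, and -0.32 with the GC trend removed). The 1 higher neighbour, at 0.17, overlapped Tac1, a tachykinin precursor, and was at 0.74 with the GC trend removed, above the pair. These neighbours were AT-rich, with a median GC of 41.2%, and with the GC trend removed their median was 0.15 against 0.44 for the pair, which was still above 8 of 9. The part that base composition plays there was not tested.

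Around Dlx1/Dlx2, 11 of 14 neighbours were higher in MD43 and 3 were lower in the deposited scaling, with a median of 0.11, but 3 were higher and 11 lower under equal totals. The counting intervals of 2 lay above 0 and of 1 below 0 as deposited. Of the 14, 13 lay below the pair, as also after removal of the GC trend (median 0.15 against 0.46). The nearest on the left, 2500 bp from the edge, lay within Metap1d and went from 10.00 to 10.11 (0.11, -0.01 to 0.23). The nearest on the right, 6550 bp away and without a gene, went from 8.74 to 8.62 (-0.12, -0.32 to 0.07). Neither was beyond counting error, and the upper bounds of both were below the 0.53 of Dlx1/Dlx2.

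The 1 region above the pair was that of Gad1, whose edge lay 908500 bp from that of Dlx1/Dlx2. Gad1 encodes a glutamate decarboxylase that makes GABA and is a known target of DLX factors. Its main region went from 12.50 in WT to 13.50 in MD43, a difference of 1.001 (0.96 to 1.05), with a density of 161 per kb in WT and 322 in MD43. After removal of the GC trend the difference was 0.84. Only this region passed 1 around Dlx1/Dlx2, and under equal totals it was at 0.76 and none did.

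Around Dlx3/Dlx4 the pair stood out least. Of 27 neighbours 23 were higher in MD43 and 4 were lower in the deposited scaling, with a median of 0.19, but 10 were higher and 17 lower under equal totals. Of the 27, 22 lay below the pair's 0.39. Counted by nearest edge in place of centre, a cut chosen after seeing the data, Hoxb at 0.54 joins them, above the pair, and 22 of 28 lay below. With the GC trend removed the neighbours' median was -0.0021 and 18 lay below the pair's 0.06. The nearest on the left, at Samd14, went from 7.17 to 7.37 (0.20, -0.12 to 0.52), and the nearest on the right, 59350 bp away at Fam117a, went from 9.65 to 9.69 (0.04, -0.10 to 0.18). The region of Acsf2 and Chad passed 1, from 8.43 to 9.47 (1.03, 0.85 to 1.22), and was 0.60 after removal of the GC trend.

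**Figure D4:**
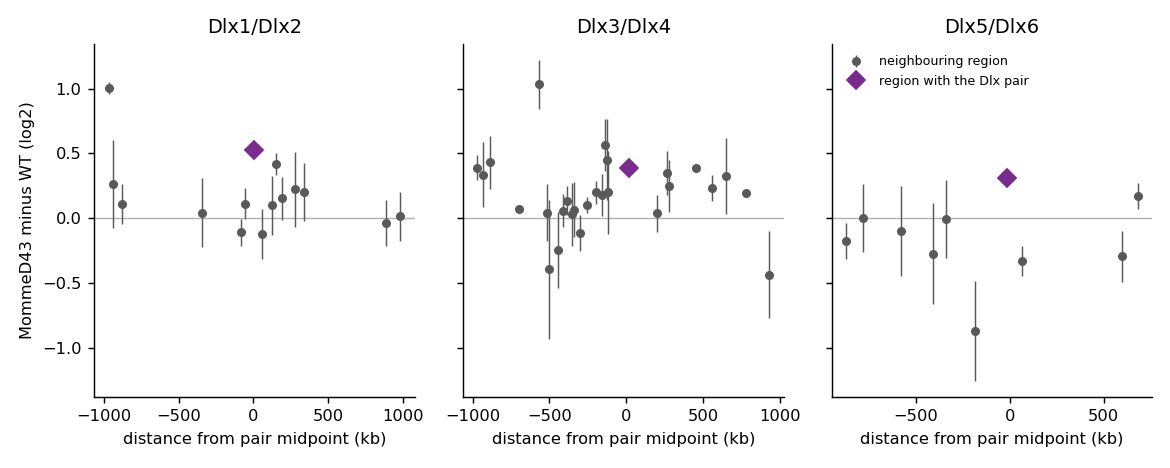
Difference in H3K27me3 (MommeD43 minus WT, log2) of the regions centred within 1 Mb of each Dlx pair (grey points) and of the Dlx regions (purple diamonds), against distance from the pair midpoint in kb. Bars are 95% counting intervals, which for the Dlx regions are smaller than the symbol. The pair lies above all 9 neighbours at Dlx5/Dlx6, above 13 of 14 at Dlx1/Dlx2 and above 22 of 27 at Dlx3/Dlx4, where the Hoxb region, centred beyond the window, is not drawn.

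Each pair was set beside the Hox cluster of its chromosome, which was more densely marked in every case, by 1.59, 1.26 and 1.86 times in WT for Hoxd over Dlx1/Dlx2, Hoxb over Dlx3/Dlx4 and Hoxa over Dlx5/Dlx6. In MD43 the ratios were 1.32, 1.41 and 1.95. The Dlx1/Dlx2 region, 2.99 Mb from Hoxd, had a larger difference than Hoxd, which was at 0.26, by 0.27 (0.25 to 0.29), and by 0.18 with the GC trend removed. The Dlx3/Dlx4 region, 0.798 Mb from Hoxb, had a smaller one than Hoxb, which was at 0.54 (Dlx minus Hox -0.15, -0.17 to -0.13, and -0.44 with the GC trend removed). Dlx5/Dlx6, 45.1 Mb from Hoxa, was slightly below Hoxa at 0.38 (-0.07, -0.09 to -0.04), and this turned to 0.11 with the GC trend removed. The ratio of Dlx to Hox marking therefore moved in opposite directions at Dlx1/Dlx2 and Dlx3/Dlx4.

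The genes that act with the Dlx factors were read in the same table, by lists chosen by function. Where a gene overlapped several regions, the one of highest mean value was taken. Of 26 regulators of GABAergic development 23 had a region, of which 18 were higher in MD43 and 5 lower. Their median was 0.43, against 0.11 over all regions, 0.075 over the autosomal ones and 0.39 over the Dlx regions. Of all regions 60.2% were higher, and of the long autosomal ones 76.9%. By that region 4 genes of the list passed 1 and none passed -1, against 6.09% and 3.03% of all regions. Prox1 falls below 1 under equal totals (0.77) and with the GC trend removed (0.80), which leaves 3. Gsx2, a homeodomain factor that acts upstream of Dlx1 and Dlx2 in the ganglionic eminences, went from 11.49 to 13.38 (1.89, 1.83 to 1.95). Ebf1, a factor of striatal neurons, differed by 2.46, the TALE homeodomain factor Meis1 by 1.61 and Prox1 by 1.01. The most strongly marked by value per region were Six3 (0.57), Nr2f2 (0.25) and Nkx2-1 (0.09). The lowest difference was at Sp8 (-0.74), a zinc finger factor of the dorsal lateral ganglionic eminence. Dlx1/Dlx2 at 0.53 and Dlx5/Dlx6 at 0.31 lay well below Gsx2 in difference but above it in WT density, which was 77.9 per kb at Gsx2.

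Of 18 effector genes of GABAergic neurons 16 had a region, 10 higher and 6 lower, a share of 62.5% against 60.2% of all regions, with a median of 0.31. By its strongest region Gad1 alone passed 1 in the deposited values, 1 of 16 against 6.09% of all regions. It was below 1 under equal totals, when none passed 1 and Erbb4 passed -1. With the GC trend removed it was also below 1, and Calb1 (1.07) and Robo1 (1.26) passed, against 8.38% of all regions. As deposited Calb1 was at 0.30 (0.06 to 0.55). Slc32a1, the vesicular GABA transporter, was the most strongly marked by value per region (0.56), and Ackr3, a chemokine receptor of migrating interneurons, was at -0.15. Erbb4, a neuregulin receptor, was lowest at -0.82 in its strongest region (0.21 with the GC trend removed). Erbb4 overlapped 11 regions, all lower in MD43, with differences from -3.34 to -0.08, of which 7 passed -1 (9 under equal totals). With the GC trend removed 8 of the 11 were below 0 and 2 passed -1.

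For the next 2 lists the background was 60.2% of all regions and 76.9% of the long autosomal ones higher, and 6.09% of all regions past 1. Among 20 partners of the Dlx genes in face, limb and bone, 17 had a region, 16 higher and 1 lower, with a median of 0.39 and 2 past 1. Bmp4, a signal upstream of Dlx and Msx genes in the branchial arches, differed by 1.62 and Gbx2 by 1.02 (0.78 under equal totals and 0.86 with the GC trend removed), whereas the strongly marked Hand2 and Barx1 differed by 0.16 and 0.42. Among 14 partners of Dlx3 in ectoderm and placenta, 9 had a region, 7 higher and 2 lower, with a median of 0.32 and 1 past 1. Tfap2c, a trophoblast and ectoderm factor, differed by 1.58, and Tfap2a and Sp6 both differed by 0.32, as did the Hoxc region that holds Hoxc13, but Sp6 was at -0.0016 with the GC trend removed. The medians of the 4 lists by function with the GC trend removed were 0.31, 0.17, 0.20 and 0.22. Under equal totals 17 of 23, 10 of 16, 12 of 17 and 6 of 9 regions were higher, against 37.1% of all regions and 51.2% of the long autosomal ones.

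In the deposited values the Dlx regions lay within the range of other homeobox families. The median difference was 0.25 over 10 regions of Nkx genes (9 higher, 1 lower), 0.35 over 10 of Lhx and Isl genes (8 higher, 2 lower), 0.44 over 6 of Irx genes (6 higher) and 0.35 over the 4 Hox clusters (4 higher). No region of these families passed 1, which 6.09% of all regions did. Of all regions 60.2% were higher, and of the other autosomal regions of at least 50 kb 76.9%. Scaling to equal totals takes 0.24 from each of these values, about the whole of the Nkx median, and leaves 5 of 10 Nkx regions higher, with the counts of the other families as before. With the GC trend removed the medians were 0.25 for Nkx, 0.16 for Lhx and Isl, 0.24 for Irx and 0.31 for Hox, all below the 0.44 of the Dlx regions, of which Dlx3/Dlx4 was at 0.06. The most strongly marked by value per region, which grows with length, were Nkx2-3 (0.34), Nkx2-5 (0.28), Lhx1 (0.38), Lhx4 (0.29), Irx5 (0.42) and Irx3 (0.43). The order by density was another, as Lhx1 was at 141.8 per kb in WT and Lhx9 at 456.8. Some genes stand in more than 1 list, and Dlx, Hox and the other families are read from the same 2 pooled columns.

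**Figure D5:**
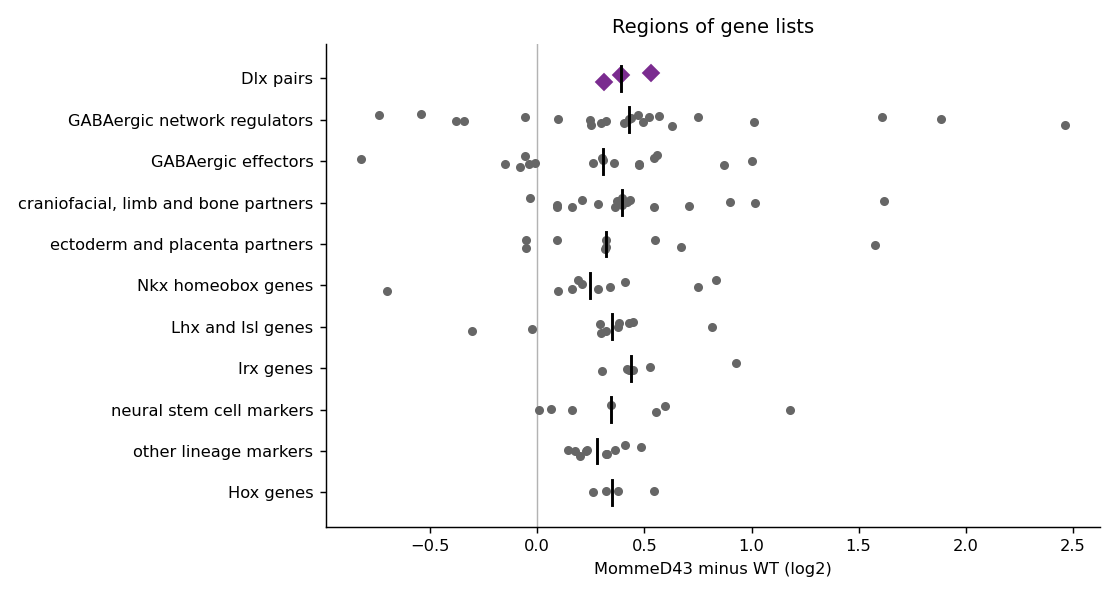
Difference in H3K27me3 (MommeD43 minus WT, log2) of the 3 Dlx regions (purple diamonds) and of the distinct regions of each gene list (grey points, 1 per region), with black bars at the medians. The Dlx regions lie between 0.31 and 0.53, inside the range of each homeobox family, while single genes of the GABAergic and craniofacial lists lie beyond 1.

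By the pattern over the 2 genotypes, measured as the distance between log2 densities per kb in WT and MD43 over 4419 autosomal regions with a protein-coding start, the closest to Dlx1/Dlx2 was the region of Six3 and Six2, at a distance of 0.04, followed by Irx5 at 0.10 and Tfap2a at 0.15. Closest to Dlx5/Dlx6 were the region of Lhx6, Ndufa8 and Morn5 (0.02), Nkx2-5 (0.07) and the region of Tal1 and Pdzk1ip1 (0.07). Closest to Dlx3/Dlx4 were Gdf6 (0.01), a region of 6 genes from Galns to Cdh15 (0.08) and Slc6a5 (0.10). These distances rest on 2 values per region and are a description.

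The table holds no expression values, so the label of the cells was read only from which markers carried a region. Regions were found at 7 of 12 neural stem cell markers and at 10 of 12 markers of other lineages, against 43.0% of all 21951 protein-coding genes, with median WT densities of 43.5 and 123.7 per kb. No region was listed here at the stem cell markers Sox2, Vim, Fabp7 and Sox9, among others, nor at the lineage markers Gata1 and Myf5. Among the lineage markers with a region, Gata4 and Foxa2 were at 217 and 279.8 per kb in WT, and Myog, Spi1 and Hnf4a at 56.9, 47.9 and 39.4. Among the stem cell markers Emx1, Hes5 and Hes1 were at 184, 78.7 and 53.8, so the levels of the lists overlapped and the marks alone do not settle the label. Among the 7, Pax6, a factor of dorsal forebrain progenitors, differed by 1.18, from 9.27 to 10.45, which became 0.94 under equal totals and 0.84 with the GC trend removed. The Dlx regions, at 183 to 316 per kb in WT, were above the median of both lists.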

How the data were processed

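H3K27me3 ChIP-seq libraries (3 per genotype) and whole-cell extract libraries (1 per genotype) are described in the labels. The authors trimmed reads with Trim Galore 0.4.4 and aligned them with Bowtie2 2.3.4.1 (submitters' processing notes). Per their methods they called peaks on merged replicates against whole-cell extract, widened and joined them in SeqMonk, and took log2 read counts per region after scaling to library size. The deposited table gives these log2 values as 1 pooled mean per genotype (GRCm38). Fragmentation is given as micrococcal nuclease in the labels and as shearing in the methods, and which was used is not known here.

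The Start and End columns were used, because the end in the region name differs from the End column in 8582 of 13585 rows. The read unit was the largest step that made 2 to the power of 3 times the mean a whole number within 0.1 (1138 of 1139 low values in WT, 681 of 684 in MD43). Counting intervals treat reads as independent. Base composition, CpG and repeats came from the RefSeq GRCm38.p6 sequence and genes from GENCODE release M21, and promoters from the RefSeq table, which matched 2 of 6 Dlx genes. Trends were running medians over 40 bins of autosomal regions, held constant beyond the outermost bins. The intended count test could not be used on pooled columns, so values are descriptive and there are no p-values. Scripts (Python 3.11.15, numpy 2.4.6, pandas 2.3.3, pysam 0.24.0) were tested on simulated data. Rescalings, trend removals, other flanks, thresholds and pseudocounts were tried as alternatives.

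The named genes were those of the rows overlapping the pairs, of rows within 1 Mb past 1 or nearest on each side, the 3 genes of highest mean value and any gene past 1 in each list, and the 3 nearest regions by pattern. Others, such as Sp8, Erbb4 and Tac1, were named after their values were seen. A few genes that the rule names are not reported here. The members and lists were chosen with earlier results of these data known.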

Additional observations from a re-analysis of the deposited data

How the results depend on the processing

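Scaling both columns to equal totals gave 0.29 at Dlx1/Dlx2, 0.15 at Dlx3/Dlx4 and 0.068 at Dlx5/Dlx6, with a median of 0.15. Scaling to the autosomal median gave 0.45, 0.32 and 0.23, median 0.32. Removing the abundance trend gave 0.22, 0.082 and 0.0012, median 0.082, and removing the GC trend gave 0.46, 0.062 and 0.44, median 0.44. Removing GC and then density trends gave 0.24, -0.16 and 0.22, median 0.22, so Dlx3/Dlx4 alone changed sign, under this alternative alone of those run, and the cause was not tested. A flank of 50 kb took in 6 regions, 4 higher and 2 lower, with a median of 0.21, while a flank of 0 kb and a minimum count of 50 left the 3 regions as they were. The share of all regions past 1 upward became 3.61% under scaling to equal totals and 18.3% at a threshold of 0.5, where 1 Dlx region was past. The share downward became 5.73% under scaling to equal totals, 0.714% with the GC trend removed, 0.714% with GC and density trends removed, 1.83% at a minimum count of 50 and 11.2% at a threshold of 0.5. The percentile of the Dlx levels moved by less than 1 point per kb and with pseudocounts of 1 and 10. Taking neighbours by edge, an alternative chosen after seeing the data, left 13, 22 and 9 of them below Dlx1/Dlx2, Dlx3/Dlx4 and Dlx5/Dlx6, as by centre. No paired analysis was possible because each genotype has 1 pooled column. Leaving out replicates, other size factors and a replicate block were for the same reason not run. Depth limits the neighbours more than the Dlx regions: the median counting error of a difference was 0.11 over all regions and 0.011 at Dlx1/Dlx2.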

Other observations

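Some genes beside the Dlx pairs in their networks were chosen after their values were seen. Msx1 and Msx2, homeodomain factors that act with Dlx genes in the branchial arches, had regions that differed by 0.90 (0.86 to 0.93) and 0.71 (0.67 to 0.75), and by 0.62 for both with the GC trend removed. Irx2 differed by 0.93, more than the other 5 Irx genes. Lhx2, a selector of cortical identity, was lower in MD43 by the deposited values, from 11.35 to 11.04 (-0.31, -0.39 to -0.22), and was at -0.60 with the GC trend removed, while a second, weaker region of the gene was at 0.22. Nkx2-4 was at -0.70 but at -0.03 with the GC trend removed, and Robo1, an axon and interneuron guidance receptor in an AT-rich region, was at 0.87 in its strongest region and at 1.26 there with the GC trend removed, and a weaker one was at 0.48 as deposited.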
